A study of Rattus norvegicus with 9 samples.

Results

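The 10 genes described here encode the 4 Argonaute proteins of the rat (Ago1, Ago2, Ago3 and Ago4) and 6 proteins that make microRNAs (miRNAs) or act with the Argonautes (Drosha, Dgcr8, Xpo5, Dicer1, Tarbp2 and Tnrc6a). They were taken by name from the 32883 genes of the deposited tables, and each name matched 1 row. The set was chosen with earlier results of these libraries in view. Which contrast chose it is not recorded, so the levels and fold changes of all 10 genes count as selected on, the fits below describe them, and Ago4's place in those fits is not independent evidence. RNA was sequenced from retroperitoneal adipose tissue, as the study's methods state, of male Wistar rats in 3 groups of 3 libraries. The sample titles end in TA and the matching data columns in H, a letter with no stated meaning, which leaves it unsettled whether the columns are of the titled tissue. BB rats had a high fat diet, a single injection of streptozotocin at 25 mg/kg (a toxin of insulin-producing cells) and then an anthocyanin-rich black bean extract at 260 mg/kg per day by gavage, with tissue collected on day 31. DB rats had the same diet and streptozotocin and were gavaged with water. HE rats had a standard diet and the citrate buffer used to dissolve streptozotocin, and no treatment, with no gavage stated. Diet, streptozotocin and gavage thus cannot be told apart in DB against HE, and in BB against HE the extract is added to them.

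A miRNA is cut out of a long primary transcript in the nucleus by the Microprocessor, in which Drosha is the RNase and Dgcr8 the RNA-binding partner. Xpo5 (exportin-5) carries the hairpin to the cytoplasm, where Dicer1 with its partner Tarbp2 trims it to a short duplex. A strand of that duplex is loaded into an Argonaute protein, which the miRNA guides to messenger RNAs. Among the Argonautes Ago2 cleaves well-matched targets efficiently, and Ago4 is regarded as lacking that activity, though not as the only paralog without efficient cleavage. Tnrc6a (GW182) binds Argonautes and brings the deadenylases that shorten the poly(A) tail of the target. In adipose tissue this pathway is known for its part in adipocyte differentiation and for miRNAs released into the circulation.

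The values are reads divided by a size factor of each library, without correction for gene length, so levels are compared between libraries and not between genes. The libraries other than BB replicate 8 held 2771967 to 3542749 reads, and a read was worth 0.672 to 0.913 of the value unit. BB replicate 8 stood apart, with 12267084 reads, 15583 genes at 0 against 631 to 894 in the other libraries, and a value of 14.6 for a single read. It is therefore given apart, and the fits use the other 8 libraries, with 2 of them in BB. The mean values of the 23 adipocyte markers had a median percentile of 71.2 among all genes, on a scale that depends on gene length. Lymphocyte (60.7), skeletal muscle (65.3) and erythroid markers (66.2) stood lower, and hepatocyte (78.8), neuron (79.8), kidney or adrenal (80.3), endothelial (89.3) and macrophage markers (91.5) stood higher, so adipocyte markers were not the highest of the 9 lists. Adipoq, the adipokine adiponectin, had 58.4 to 71.2 (percentile 71.2), Plin1, the lipid droplet protein perilipin, 75.7 to 117 (82.3), Lep, leptin, 156 to 233 (94.6), and Fabp4, the adipocyte fatty acid-binding protein, 8.10 to 14.6 (28.5). No marker of any list was at 0 in these 8 libraries.

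Of the 10 genes, Ago4 was lower in both diabetic groups than in HE, and the other 9 did not pass the test in any comparison. Ago4 had 70.1 and 45.9 in BB, 68.5, 65.6 and 67.3 in DB, and 159, 113 and 201 in HE. Every DB library and both BB libraries lay below the lowest HE library. These values stood for 90 and 57 reads in BB, 75, 81 and 90 reads in DB, and 237, 134 and 258 reads in HE. The DB libraries were close together, at 67.1 ± 1.45 (SD, n = 3), whereas HE was spread, at 158 ± 44.0 (SD, n = 3), and BB had 58.0 ± 17.1 (SD, n = 2). BB replicate 8 held 4 Ago4 reads, a value of 58.5 with an exact 95% Poisson interval of 15.9 to 150 that covers counting error only. That interval takes in values of all 3 groups.

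**Figure D1:**
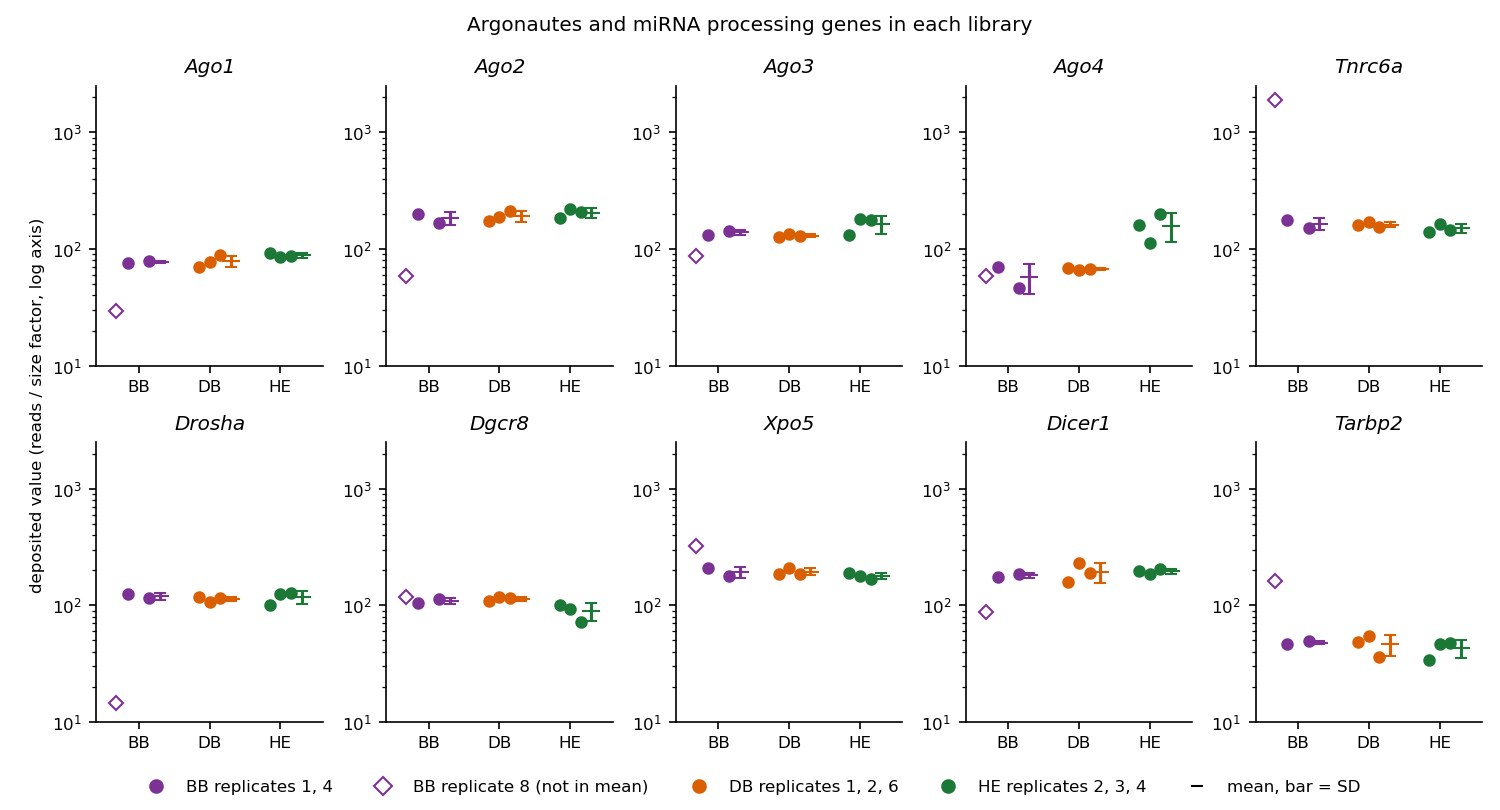
Deposited values (vertical log axis, reads divided by the size factor) of the 10 genes in each library of BB, DB and HE. Filled points are the 8 libraries of the fits, horizontal ticks with bars are mean and SD, and the open diamond is BB replicate 8. Ago4 lay at 45.9 to 70.1 in BB and DB and at 113 to 201 in HE.

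In DB against HE the log2 fold change of Ago4 was -1.18 (SE 0.18, 95% interval -1.56 to -0.81, limma adjusted p = 0.00156), the 45th smallest p of 32371 genes tested. Here 219 genes passed an adjusted p of 0.05, or 0.677% of those tested, with 111 lower (0.343%) and 108 higher (0.334%), and 1 of the 10 genes was among them. In BB against HE it was -1.42 (SE 0.20, 95% interval -1.84 to -1.004, limma adjusted p = 0.00184), rank 14, where 62 genes passed (0.192%), 48 of them lower (0.148%) and 14 higher (0.0432%), and again 1 of the 10. Ago4 was also the only gene of the 10 called by edgeR, DESeq2 and limma-voom, which called 0.695%, 1.05% and 0.902% of the genes given an adjusted p in DB against HE, and 0.21%, 0.147% and 0.188% in BB against HE. Both comparisons use the same HE libraries and are not independent of each other. With BB replicate 8 included, the fold changes were -1.18 and -1.41, with adjusted p of 1 and 0.526, and 0 genes were called in either comparison. The BB call also rested on BB replicate 4, without which the log2 fold change was -1.12 (limma adjusted p = 0.0708), while the DB call held without each of the 8 libraries in turn, at -1.40 to -0.99 with adjusted p of 9.79e-05 to 0.0346.

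In BB against DB, which asks whether the extract moved the genes in diabetic rats, 0 of the 10 genes passed, as did 0 of 32371 genes by limma (0% called). At an unadjusted p under 0.05 the counts were 0 of the 10 and 1603 of all genes (4.95%), a share at which 0 of 10 is unremarkable. By adjusted p, edgeR and DESeq2 called 2 genes each (0.00618%) and limma-voom 0, none of them among the 10. The log2 fold change of Ago4 was -0.24 (SE 0.20, 95% interval -0.66 to 0.18, limma adjusted p = 0.998). It was -0.54 without BB replicate 1 and 0.062 without BB replicate 4, so the sign turned with a single library. The intervals of the other 9 genes in this comparison lay within -0.38 and 0.50.

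**Figure D2:**
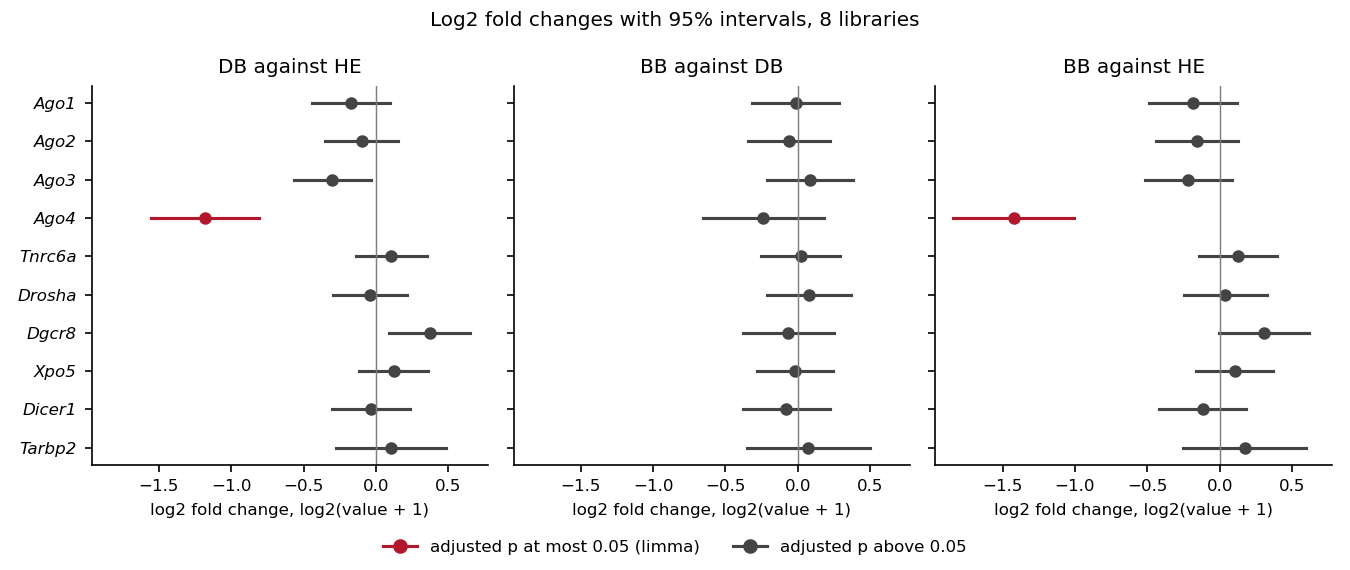
Log2 fold changes on the log2(value + 1) scale (horizontal axis) with 95% intervals of the 10 genes in DB against HE, BB against DB and BB against HE, from the limma fit of 8 libraries. Red marks an adjusted p of at most 0.05, which only Ago4 reached, at -1.18 in DB and -1.42 in BB, both against HE.

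Ago1, Ago3 and Ago4 lie next to each other on rat chromosome 5 and are read from the same strand, in the order Ago4, Ago1, Ago3. Their upstream sequences are shown because these adjacent paralogs had different readouts. The bases are the 250 before the start that RefSeq lists for each gene, in build GRCr8 and on the minus strand, at chr5:144110403-144110652 for Ago4, chr5:144041625-144041874 for Ago1 and chr5:143998738-143998987 for Ago3, written 5′ to 3′ with matches to GGGCGG (a GC box) or CCAAT on either strand in capitals.
Ago4: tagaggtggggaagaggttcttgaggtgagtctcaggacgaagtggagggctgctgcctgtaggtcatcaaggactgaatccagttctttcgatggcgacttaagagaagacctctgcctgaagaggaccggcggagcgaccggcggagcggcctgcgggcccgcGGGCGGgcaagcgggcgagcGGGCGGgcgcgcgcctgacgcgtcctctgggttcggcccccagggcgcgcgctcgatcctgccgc
Ago1: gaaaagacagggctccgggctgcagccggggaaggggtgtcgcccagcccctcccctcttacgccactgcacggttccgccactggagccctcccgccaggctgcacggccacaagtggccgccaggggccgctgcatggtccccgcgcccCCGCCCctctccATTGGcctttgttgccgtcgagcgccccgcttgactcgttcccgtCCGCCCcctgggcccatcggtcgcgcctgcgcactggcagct
Ago3: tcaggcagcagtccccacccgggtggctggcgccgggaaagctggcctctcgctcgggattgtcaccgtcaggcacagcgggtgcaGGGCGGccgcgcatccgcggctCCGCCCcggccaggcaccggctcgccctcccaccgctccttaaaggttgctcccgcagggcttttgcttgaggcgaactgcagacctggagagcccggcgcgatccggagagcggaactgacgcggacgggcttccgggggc
All 3 held 2 GC boxes, a motif found in 32.4% of the 27455 rat promoter windows of this length. Ago1 also held a CCAAT box (34.3% of windows), and none of the 3 held TATAAA (13.1%), CACGTG (5.79%) or TGACGTCA (1.7%). None of these motifs shares a stretch with another in these windows, and a match is a description and not a bound site. CpG dinucleotides numbered 28 for Ago4, 24 for Ago1 and 28 for Ago3, against a median of 6 over all windows. Promoters were found for 9 of the 10 genes, with 19 to 34 CpG each, and Ago4 at 28 lay within that range. A link between the CpG count and the fold changes was not tested.

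The other 3 Argonautes did not pass the test. Ago1 had 76.3 and 78.9 in BB, 70.3, 77.7 and 88.2 in DB, and 93.4, 85.4 and 86.6 in HE. Both BB libraries lay below HE and DB overlapped HE, with log2 fold changes of -0.19 in BB (limma adjusted p = 0.887) and -0.17 in DB (limma adjusted p = 0.758), both against HE. Ago3 had 133 and 144 in BB, 128, 134 and 129 in DB, and 131, 180 and 177 in HE. HE replicate 2 sat among the diabetic libraries and the other two HE libraries above them, with a log2 fold change of -0.30 in DB against HE (SE 0.13, 95% interval -0.57 to -0.035, unadjusted p = 0.0287, limma adjusted p = 0.451). Ago2, the slicing Argonaute, had 200 and 167 in BB, 173, 189 and 211 in DB, and 183, 222 and 207 in HE. The 3 groups overlapped, at a log2 fold change of -0.097 in DB against HE (95% interval -0.35 to 0.16, limma adjusted p = 0.879) and -0.16 in BB against HE (95% interval -0.44 to 0.13, limma adjusted p = 0.901). How reads that match several paralogs were counted is not given in the sources used here, so the division of reads among the 4 Argonautes carries that uncertainty.

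As a share of the reads of all 4 Argonaute genes in the same library, a measure that the size factor does not touch, Ago4 took 14.6% and 10.5% in BB, 15.6%, 14.0% and 13.6% in DB, and 28.1%, 18.8% and 30.0% in HE. The ranges of the diabetic and HE libraries did not overlap, but HE replicate 3 (95% Wilson interval 16.1 to 21.9%) came close to DB replicate 1 (12.6 to 19.1%), and these intervals cover counting error only. For each Ago1 read there were 0.918 and 0.582 Ago4 reads in BB, 0.974, 0.844 and 0.763 in DB, and 1.71, 1.33 and 2.32 in HE. The summed value of the other 3 Argonautes was 410 and 390 in BB, 371, 402 and 428 in DB, and 408, 488 and 471 in HE. That sum overlapped between diabetic and HE libraries while the Ago4 value did not. A ratio within a library shows unequal change and does not say which gene was constant.

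**Figure D3:**
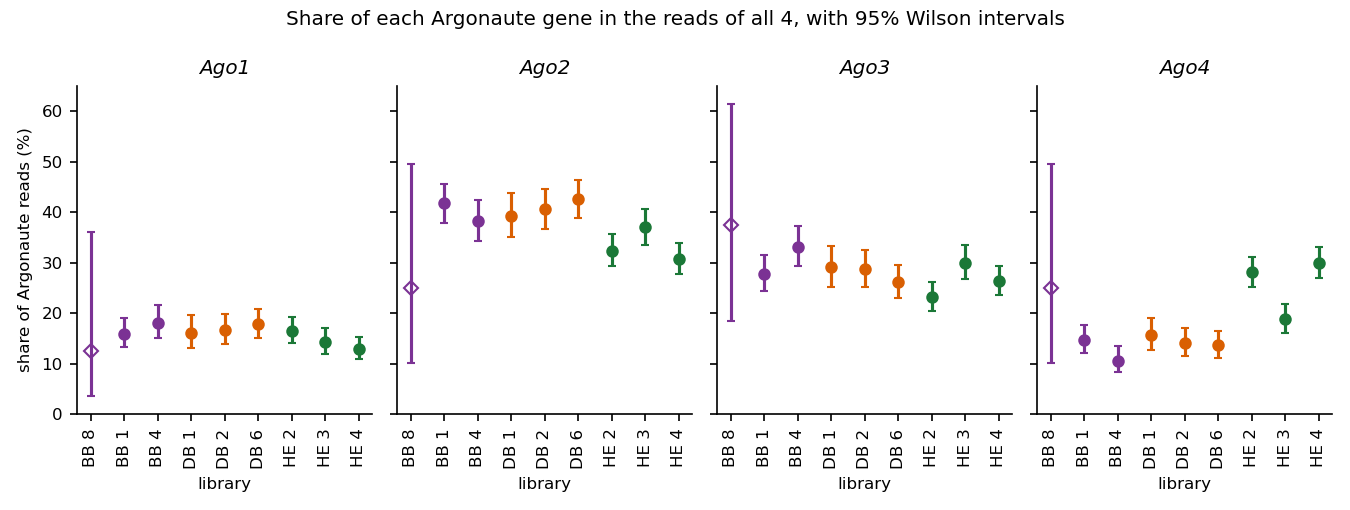
Share of each Argonaute gene in the reads of all 4 (vertical axis, percent) in every library, with 95% Wilson intervals and BB replicate 8 as an open diamond. Ago4 took 10.5 to 15.6% in the BB and DB libraries of the fits and 18.8 to 30.0% in HE, while BB replicate 8 rested on 16 reads in all.

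The genes beside the Argonautes on chromosome 5 did not pass the test. The 5 protein-coding genes on each side, taken in RefSeq order and chosen after the Ago4 values had been seen, had log2 fold changes of -0.37 to 0.23 in DB against HE (median -0.057) and -0.66 to 0.25 in BB against HE (median -0.093). Clspn, the checkpoint adaptor claspin and the next gene to Ago4, had 181 and 147 in BB, 162, 185 and 170 in DB, and 165, 160 and 197 in HE. Its groups overlapped. The neighbour with the smallest p was Tfap2e, a transcription factor of the AP-2 family, at -0.37 in DB (limma adjusted p = 0.451) and -0.66 in BB (limma adjusted p = 0.250), both against HE. It had 40.5 and 49.9 in BB, 49.3, 67.2 and 50.8 in DB, and 69.9, 74.4 and 70.2 in HE. For Tfap2e and Ncdn every diabetic library lay below every HE library, as did the BB libraries for Tekt2. Psmb2 lay above HE in DB. Over all genes 14.1% did not overlap in DB against HE, and 22.1% in BB against HE. All 10 neighbours stayed above an adjusted p of 0.05 in each comparison.

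**Figure D4:**
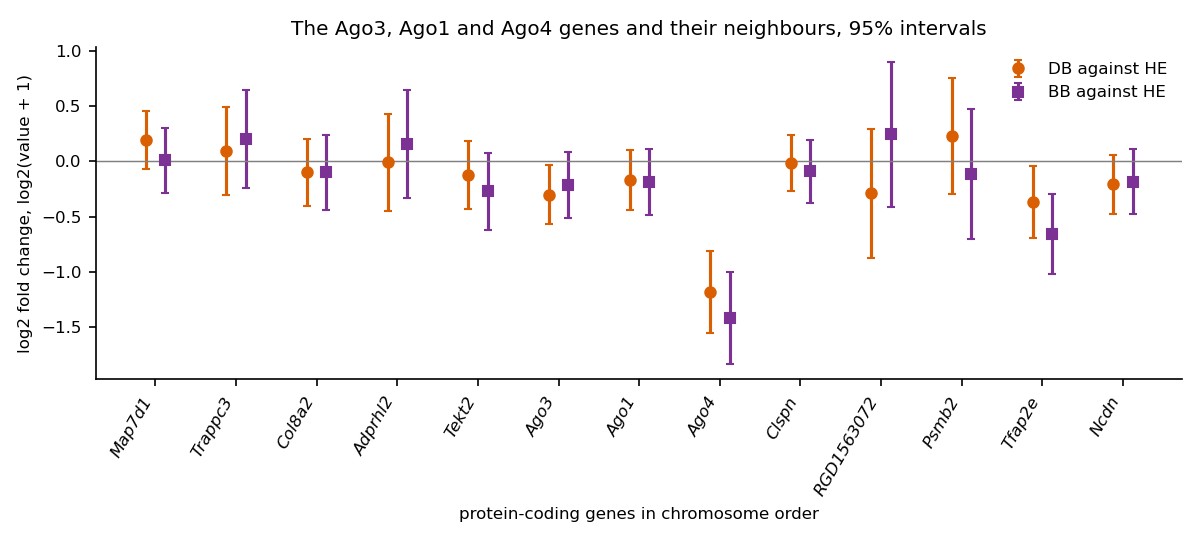
Log2 fold changes with 95% intervals (vertical axis) of Ago3, Ago1, Ago4 and the 5 protein-coding genes on each side, in chromosome order (horizontal axis), in DB against HE and BB against HE. Ago4 lies at -1.18 and -1.42, and the 10 neighbours lie between -0.66 and 0.25.

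The Microprocessor genes differed less. Dgcr8 had 104 and 114 in BB, 109, 117 and 116 in DB, and 101, 93.0 and 71.8 in HE. Every BB and DB library was above every HE library, with a log2 fold change of 0.37 in DB against HE (SE 0.13, 95% interval 0.090 to 0.65, unadjusted p = 0.0122, limma adjusted p = 0.324) and 0.31 in BB against HE (95% interval -0.0076 to 0.62, limma adjusted p = 0.745). Groups that do not overlap are common at this size: 14.1% of all genes in DB against HE (7.25% lower, 6.82% higher) and 22.1% in BB against HE (11.9% lower, 10.3% higher). Of the 10 genes, 1 was lower (Ago4) and 1 higher (Dgcr8) in this sense in DB against HE, and 2 lower (Ago1 and Ago4) and 1 higher (Dgcr8) in BB against HE, and in BB against DB there were 0, against 19.6% of all genes (10.5% lower, 9.04% higher). Drosha had 125 and 114 in BB, 117, 108 and 116 in DB, and 101, 124 and 126 in HE. All 3 groups overlapped, at -0.039 in DB against HE (95% interval -0.30 to 0.22, limma adjusted p = 0.965). The miRNA gene Mir1306, which lies in Dgcr8, was at 0 in all 9 libraries, where a floor of 3 reads corresponds to a value of 2.02 to 2.74 in the 8 libraries.

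Export, dicing and effector genes did not pass the test. Xpo5 had 207 and 177 in BB, 187, 211 and 185 in DB, and 188, 179 and 168 in HE. Its log2 fold change was 0.12 in DB against HE (95% interval -0.11 to 0.36, limma adjusted p = 0.824). Dicer1 had 174 and 187 in BB, 158, 232 and 188 in DB, and 196, 184 and 206 in HE. The DB libraries spanned the whole HE range, at -0.036 in DB against HE (95% interval -0.31 to 0.23, limma adjusted p = 0.970). Tarbp2, the least counted of the 10, had 46.7 and 49.1 in BB, 48.4, 54.2 and 35.9 in DB, and 34.3, 46.5 and 47.6 in HE. Its interval was the widest, -0.28 to 0.48 in DB against HE around 0.10 (limma adjusted p = 0.926). Tnrc6a had 178 and 151 in BB, 161, 170 and 155 in DB, and 141, 165 and 145 in HE. The groups overlapped, at 0.11 in DB against HE (95% interval -0.14 to 0.35, limma adjusted p = 0.858) and 0.13 in BB against HE (95% interval -0.14 to 0.40, limma adjusted p = 0.924). Over the 10 genes the median log2 fold change was -0.037 in DB against HE, beside 0.0053 over all genes, and -0.039 in BB against HE, beside -0.0011.

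BB replicate 8 had few reads for most of these genes: 2 for Ago1, 4 for Ago2, 6 for Ago3, 6 for Dicer1, 1 for Drosha and 8 for Dgcr8. Tnrc6a had far more there, with 130 reads and a value of 1902, against 178 and 151 in the other BB libraries. Xpo5 (22 reads, 322) and Tarbp2 (11 reads, 161) also stood above the other 8 libraries, whereas Ago1 (29.3), Ago2 (58.5), Ago3 (87.8), Dicer1 (87.8) and Drosha (14.6) stood below them. The exact 95% Poisson intervals of Ago1 (3.54 to 106), Ago3 and Dicer1 (both 32.2 to 191) and Xpo5 (202 to 487) took in values of other libraries. Those of Tnrc6a, Tarbp2, Ago2 and Drosha did not. The values of BB replicate 8 are on a scale of 14.6 per read, so that single reads move them.

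The wider pathway was followed with 4 gene lists. Of 23 cofactors of miRNA processing and export 0 were called by limma in DB against HE, with 3 at an unadjusted p under 0.05 (9.43% of all genes) and a median log2 fold change of 0.015. DESeq2 and limma-voom each called Tut4, the uridylyl transferase that marks the let-7 precursor, as lower, and edgeR called 0. Tut4 had 1922 and 2001 in BB, 1893, 1825 and 1789 in DB, and 2431, 2887 and 2571 in HE. Every diabetic library was below every HE library, at a log2 fold change of -0.52 in DB against HE (SE 0.15), with an adjusted p of 0.146 by limma, 0.0853 by edgeR, 0.00176 by DESeq2 and 0.0206 by limma-voom. Xpo1, the general export receptor, was at -0.34 (limma adjusted p = 0.343) and Lin28a, the RNA-binding protein that recruits Tut4 to let-7 precursors, at 0.30 (limma adjusted p = 0.466).

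Of 25 partners of Argonaute loading and transport 0 were called by limma, edgeR, DESeq2 or limma-voom in DB against HE, with 1 at an unadjusted p under 0.05 and a median of -0.027. The 3 with the smallest p were Tsn (translin) at -0.28, Tnpo1 (transportin-1) at -0.27 and Fxr2, of the fragile X family, at -0.20, with limma adjusted p of 0.456, 0.577 and 0.755. Of 37 silencing effectors, the deadenylases, decapping proteins and their partners, 0 were called by limma, with 4 at an unadjusted p under 0.05, a share near the 9.43% of all genes, and a median of 0.0023, while edgeR called 2 and DESeq2 and limma-voom 0. The 2 called by edgeR bear on deadenylation: Cnot8, a catalytic subunit of the CCR4-NOT complex, and Btg1, an antiproliferative protein that binds that complex. Btg1 had 46.7 and 29.0 in BB, 56.6, 30.8 and 90.4 in DB, and 22.2, 29.6 and 10.1 in HE. The DB libraries lay above HE, DB replicate 2 only just, at 1.47 (SE 0.34, adjusted p 0.0510 by limma and 0.0280 by edgeR). Cnot8 had 70.1 and 49.1 in BB, 65.7, 57.5 and 83.7 in DB, and 38.3, 39.7 and 45.3 in HE. All diabetic libraries lay above HE, at 0.72 in DB against HE (SE 0.17, adjusted p 0.0609 by limma and 0.0497 by edgeR). Dcp1a, a decapping cofactor, was at -0.36 (limma adjusted p = 0.311).

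The piRNA pathway, which guards the germline with the PIWI relatives of the Argonautes, gave 0 of 18 genes called by limma, edgeR, DESeq2 or limma-voom in DB against HE, 0 at an unadjusted p under 0.05 and a median of 0.022. Its 3 smallest p belonged to Pld6 at 0.80, Tdrd1 at -0.15 and Piwil2 at -0.15, with limma adjusted p of 0.549, 0.768 and 0.807. Genes of this list, known for expression in the testis, had reads in all 8 libraries, with mean values between 12.9 for Pld6 and 175 for Rnf17. The median of these means was 86.4, on the scale not corrected for gene length. Ago1 (82.1), Ago3 (145), Ago4 (98.9), Tnrc6a (158), Drosha (116), Dgcr8 (103) and Tarbp2 (45.3) lay within that range. Ago2 (194), Dicer1 (191) and Xpo5 (188) lay above it. Without correction for gene length, these positions do not rank the genes by expression. Whether values of this size stand for expression in adipose tissue was not tested. In BB against HE and in BB against DB all 4 lists had 0 genes called by limma, edgeR, DESeq2 or limma-voom. In BB against HE 2, 2, 4 and 1 of their genes were at an unadjusted p under 0.05 by limma (6.86% of all genes), in the order given above, and in BB against DB 0, 1, 0 and 0 (4.95% of all genes). DESeq2 gave no adjusted p for Ran, Pnrc1 and Pld6 in DB against HE, which are left out of its counts.

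**Figure D5:**
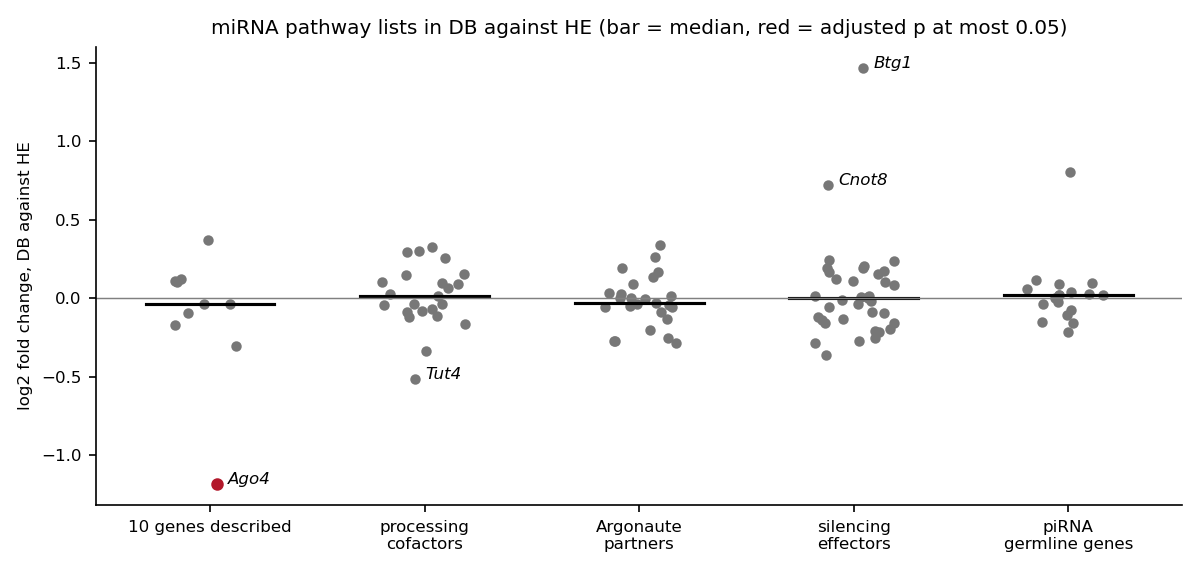
Log2 fold change in DB against HE (vertical axis) of the 10 genes and of the genes in 4 miRNA and piRNA pathway lists, each point a gene and each bar the median of its list. Red marks a limma adjusted p of at most 0.05, which Ago4 alone reached; the list medians lie between -0.037 and 0.022.

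Few markers were called by limma, all of them lower than in HE, and they came from the lymphocyte, hepatocyte and adipocyte lists. Lymphocyte markers summed to 741 to 807 in BB, 800 to 863 in DB and 934 to 1014 in HE, with 1 of 13 called, Klrk1 (a receptor of natural killer cells), which was lower in both diabetic groups. Without Klrk1 the sums were 688 to 758 in BB, 764 to 806 in DB and 808 to 856 in HE. Hepatocyte markers summed to 1710 to 1770 in BB, 1351 to 1393 in DB and 1683 to 2191 in HE, with Alb (albumin) and Tf (transferrin) called lower in DB against HE by limma among 12, of which edgeR called Alb alone. The BB sums lay within the HE range. Adipocyte markers summed to 1730 to 1841 in BB, 1680 to 1875 in DB and 1806 to 2181 in HE, with Scd, the stearoyl-CoA desaturase, called lower than in HE in both by limma among 23, though in BB not by DESeq2 or limma-voom. Without Scd the sums were 1669 to 1769 in BB, 1621 to 1814 in DB and 1708 to 2068 in HE. With or without Scd, the adipocyte sums of both diabetic groups overlapped HE. Endothelial, macrophage, skeletal muscle, neuron, erythroid and kidney or adrenal lists had 0 markers called by limma, edgeR, DESeq2 or limma-voom in the 3 comparisons. Some of their sums still separated. Kidney or adrenal markers summed to 1766 to 1999 in BB, 1707 to 1831 in DB and 1881 to 2037 in HE. Macrophage markers summed to 2082 to 2091 in BB, 2093 to 2558 in DB and 2378 to 2616 in HE. The endothelial, skeletal muscle, neuron and erythroid sums of both diabetic groups overlapped HE. The part of these lists in the Ago4 result was not tested, and in bulk tissue fewer cells of a type and less RNA per cell cannot be told apart.

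The genes whose log2(value + 1) followed Ago4 most closely over the 8 libraries, among 19784 genes with a mean of at least 20, were Ccdc14 (Pearson r = 0.993), Fam173b (0.989), Cdk19 (0.979), Gpr35 (0.977) and Lmnb2 (0.975). These coefficients describe 8 libraries in which Ago4 was high in HE and low in both diabetic groups, and they carry no test. Gpr35, a G protein-coupled receptor, had 28.0 and 24.2 in BB, 27.4, 24.3 and 25.4 in DB, and 55.1, 44.8 and 71.8 in HE. Fam173b, a mitochondrial lysine methyltransferase, had 72.4 and 47.5 in BB, 64.8, 61.5 and 66.5 in DB, and 109, 97.2 and 138 in HE. Because these genes were picked for following Ago4, their order of libraries and their differences between HE and the diabetic groups were fixed by that choice and are not tested. Their log2 fold changes were -0.45 for Ccdc14, -0.81 for Fam173b, -0.26 for Cdk19 (a Mediator kinase), -1.10 for Gpr35 and -0.54 for Lmnb2 (lamin B2) in DB against HE.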

How the data were processed

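RNA sequencing values of 9 rat libraries, 3 per group, were analysed. The authors deposited a normalized signal per gene, read counts divided by a size factor of each library. The submitters' processing notes name GRCm38 and mm10, which are mouse builds, while the rows carry rat gene names. Which genome was used is thus in doubt. For the aligner, counter, annotation and strand setting: not given in the sources used here. Sample titles number the rats, and columns were matched to them by group and rat number, although columns end in H and titles in TA. As nothing else says the libraries are of separate animals, p-values reflect library-to-library spread, which may be technical. No columns of the authors' comparisons were used.

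Whole reads were recovered in every library (100% of values within 0.1 reads). The 32371 genes whose mean value reached 1 in any group were tested on log2(value + 1), with limma 3.58.1 (trend) in a single fit of 3 groups over 8 libraries, without BB replicate 8, and Benjamini-Hochberg adjustment over all genes. As the deposited unit is not counts, edgeR 4.0.16, DESeq2 1.42.0 and limma-voom on the recovered reads are alternatives. Other alternatives were all 9 libraries, the 2 groups alone, total-count and upper-quartile scaling, a pseudocount of 0.1, no filter on low values, a minimum of 10 reads per library, and each library left out in turn. Scripts were tested on simulated data. The 10 genes and all lists were chosen with earlier results of these data known. Named genes are all 10, in each pathway list every called gene and the 3 smallest p in DB against HE, and the 5 genes most like Ago4. Neighbour order and promoters are from RefSeq GRCr8.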

Additional observations from a re-analysis of the deposited data

Results flagged for a closer look

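BB replicate 8 is in no comparison, and in it 3 of the 10 genes had an exact 95% Poisson interval wholly above the highest HE library, as did 13.1% of all 32883 genes. Tnrc6a had 1902 (130 reads, interval 1589 to 2259) there, against 141 to 165 in HE. Xpo5 had 322 (22 reads, interval 202 to 487), against 168 to 188 in HE. Tarbp2 had 161 (11 reads, interval 80.4 to 288), against 34.3 to 47.6 in HE. Ago2 (interval 15.9 to 150, HE from 183) and Drosha (0.370 to 81.5, HE from 101) lay wholly below the lowest HE library, as did 9.8% of all genes. The intervals cover counting error only.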

How the results depend on the processing

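No paired analysis was run, because the study's methods divide the rats at random into groups, and a shared replicate number pairs nothing. Over the 10 genes and 3 comparisons, 18 alternatives gave 540 log2 fold changes in all: 508 kept their direction and side of the threshold, 3 lost a call, 0 gained one, and 29 uncalled ones changed sign. The lost calls were those of Ago4 with all 9 libraries (DB and BB against HE) and without BB replicate 4 (BB against HE). With all 9 libraries 0 genes, and 0 of the 10, were called in DB against HE and in BB against HE, and BB replicate 8 moved the all-gene median of BB against HE to -0.51 (log2). Total-count scaling called 333 genes in DB against HE (100 higher), DESeq2 215 (76 higher) and the reported fit 219 (108 higher); Ago4 was called lower in all 3. Leaving out each library in turn, 59 to 420 genes were called in DB against HE, 26 to 76 in BB against HE and 0 to 19 in BB against DB; 1 of the 10 was called in DB against HE each time, and 0 to 1 in BB against HE. The fewest in DB against HE came without HE replicate 4 and the most without HE replicate 3. In BB against DB, the alternatives called 5 genes (2 groups alone), 2 (edgeR, DESeq2 and total-count scaling each) and 1 (upper-quartile scaling), and 0 of the 10. The cause of these shifts was not tested. Of the 10 genes Tarbp2 had the lowest mean value (45.3), and BB had 2 libraries in the fits.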
